A study of Mus musculus with 18 samples.

Results

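The 10 genes described here encode the inducible chaperones of the cytosol, their constitutive and co-chaperone partners, and the chaperonin pair of the mitochondrial matrix: Hspa1a, Hspa1b, Hsph1, Dnajb1, Bag3, Hspb1, Hsp90aa1, Hspa8, Hspd1 and Hspe1. They were taken by symbol from the 53819 gene entries of mouse caput epididymis RNA-seq, and all 10 passed the filter on low counts that left 18618 genes for testing. The caput is the upstream end of the epididymis, the duct through which sperm pass and mature after the testis. The 18 libraries were total RNA of C57BL/6J mice in 6 groups of 3. One part of the design was labelled 10 weeks and held control, 6% EtOH and 10% EtOH groups, and the other was labelled cessation and held the same 3 treatments, with a cessation of 1 month according to the title of the series. The sources used here do not give the way ethanol was given, the ages of the mice, or the length of treatment before cessation. Replicates are separate samples in the labels, with no statement that each is a separate animal, so the p-values rest on spread that may be technical.

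Chaperones bind unfolded or partly folded proteins and help them reach or keep their shape. HSP70 proteins bind and release client proteins in a cycle driven by ATP, in which J proteins load clients and nucleotide exchange factors reset the chaperone, while HSP90 acts later on nearly folded clients such as steroid receptors and kinases. Heat, oxidants and other damage to proteins free the transcription factor HSF1, which binds repeats of the heat shock element in the promoters of these genes. Small heat shock proteins hold unfolded proteins without ATP, and HSP60 with its lid HSP10 folds proteins inside mitochondria.

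The promoters of the members are shown because the heat shock element is the sequence feature that the family is known for. RefSeq windows of the GRCm38.p6 build, from 250 bases before to 50 bases after an annotated start, were matched for 8 members, and Hspa8 and Hsp90aa1 are named only. These windows are of an older build than the one the reads were counted on. Capitals mark GAANNTTC and TTCNNGAA, the 2 ways in which a pair of inverted heat shock units can be joined; each reads the same on both strands, and matches may overlap. The windows lie at chr17:34972107-34972406 (minus strand) for Hspa1a, chr17:34959189-34959488 (minus strand) for Hspa1b, chr5:149636287-149636586 (minus strand) for Hsph1, chr1:55087898-55088197 (plus strand) for Hspe1, chr8:83607925-83608224 (plus strand) for Dnajb1 and chr7:128523333-128523632 (plus strand) for Bag3.
Hspa1a: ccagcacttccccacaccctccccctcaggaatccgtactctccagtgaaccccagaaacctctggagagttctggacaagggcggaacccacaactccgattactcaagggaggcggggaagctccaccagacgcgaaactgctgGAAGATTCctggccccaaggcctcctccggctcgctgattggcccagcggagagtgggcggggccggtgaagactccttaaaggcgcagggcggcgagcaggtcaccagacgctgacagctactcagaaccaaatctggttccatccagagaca
Hspa1b: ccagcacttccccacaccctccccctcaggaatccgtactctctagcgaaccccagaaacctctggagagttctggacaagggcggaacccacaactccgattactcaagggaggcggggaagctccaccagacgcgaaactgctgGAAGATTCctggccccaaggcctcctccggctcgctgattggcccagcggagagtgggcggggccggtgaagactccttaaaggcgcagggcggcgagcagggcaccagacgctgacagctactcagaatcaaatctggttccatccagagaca
Hsph1: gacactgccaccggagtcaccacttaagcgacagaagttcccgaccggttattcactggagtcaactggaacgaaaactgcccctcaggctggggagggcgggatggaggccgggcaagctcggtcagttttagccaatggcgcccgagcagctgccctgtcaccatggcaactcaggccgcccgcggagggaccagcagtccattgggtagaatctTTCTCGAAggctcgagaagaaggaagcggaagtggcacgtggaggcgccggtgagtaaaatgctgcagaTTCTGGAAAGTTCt
Hspe1: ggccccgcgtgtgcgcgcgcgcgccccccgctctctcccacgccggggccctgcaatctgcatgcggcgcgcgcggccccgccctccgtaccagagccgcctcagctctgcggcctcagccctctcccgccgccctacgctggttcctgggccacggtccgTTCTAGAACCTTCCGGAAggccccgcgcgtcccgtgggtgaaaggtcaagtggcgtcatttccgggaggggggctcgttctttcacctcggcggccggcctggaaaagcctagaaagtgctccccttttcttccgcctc
Dnajb1: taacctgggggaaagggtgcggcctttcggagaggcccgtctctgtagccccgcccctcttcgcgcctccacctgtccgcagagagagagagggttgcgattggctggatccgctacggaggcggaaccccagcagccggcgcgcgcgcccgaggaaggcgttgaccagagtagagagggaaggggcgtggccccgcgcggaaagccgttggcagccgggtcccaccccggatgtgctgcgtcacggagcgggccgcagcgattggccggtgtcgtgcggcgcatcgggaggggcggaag
Bag3: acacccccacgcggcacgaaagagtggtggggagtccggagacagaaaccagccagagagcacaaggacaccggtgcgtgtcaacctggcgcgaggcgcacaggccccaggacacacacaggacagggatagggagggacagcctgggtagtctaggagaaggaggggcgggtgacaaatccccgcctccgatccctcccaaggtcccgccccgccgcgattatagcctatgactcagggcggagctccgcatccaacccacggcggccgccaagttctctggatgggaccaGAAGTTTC

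A pair motif was present in a window of 7 of the 8 matched members, all but Dnajb1, against 15.1% of 32817 promoter windows of the same length. The measures are not alike: shares of all promoters are per window, while a member counts if any of its windows matches. Hsph1, Dnajb1 and Hspd1 have 2 windows each, and Hspd1 matched only in the one that overlaps most of the Hspe1 window. Hspa1a and Hspa1b carry the same match, GAAGATTC, at base -104 from the start. Their windows are identical at 296 of 300 bases, and the differences are C44T, T47C, T249G and C276T, with the base of Hspa1a first, the position counted from the window's 5′ base, and the base of Hspa1b last. Hsph1 has TTCTCGAA at -33 and the 3-unit run TTCTGGAAAGTTC at 37. Hspe1 has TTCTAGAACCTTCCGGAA from -89, in which 2 overlapping 3-unit runs were found. A 3-unit run, GAANNTTCNNGAA or TTCNNGAANNTTC, each the reverse complement of the other, was in 0.603% of all promoters. Hspd1 and Hspe1 lie head to head: one Hspd1 window shares 285 bases with the Hspe1 window on the opposite strand, and with them this run of heat shock units. Bag3 has GAAGTTTC at 43, and Hspb1 has GAAGTTTC at -117 and GAACCTTC at -97. CCAAT, searched on both strands, was in a window of Hspa1a, Hspa1b, Hsph1, Dnajb1 and Hspd1 and in 37.4% of all promoters, and TATAAA in none of the 8 and in 13.6%. These are matches of letters, and binding was not measured.

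Library totals were 15599991 to 21067237 counts at 10 weeks and 10719320 to 17197177 after cessation. The members took 0.155% to 0.181% of the counts at 10 weeks and 0.144% to 0.313% after cessation. Their raw counts ran from 82 (Hspa1a) to 18435 (Hspa8). Counting error was not set against the spread between libraries. Where replicates lay close together at 10 weeks, as for Dnajb1 in 6% EtOH, it can be as large as the spread within the group. All 9 marker genes of caput principal cells were detected in every group. Replicate 3 of the controls after cessation and replicate 1 of 6% EtOH after cessation stood apart, with summed principal cell markers of 35627 and 35941 CPM against 61930 to 104360 CPM in the other 16. The identity of 2 libraries is in doubt: replicate 3 of 10% EtOH at 10 weeks has a sample code in a format no other library uses, and for replicate 1 of 6% EtOH after cessation the identifiers of the label and of the table differ. In bulk tissue, fewer cells of a type and less RNA per cell cannot be told apart.

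Per kilobase of annotated exon, Hspa8 stood highest and Hspa1a lowest. The median over the 18 libraries was 206 CPM per kb for Hspa8, the constitutive cytosolic HSP70, 81.5 for Hspd1 (HSP60), 70.8 for Hsp90aa1 (the inducible HSP90), 48.9 for Bag3 and 40.6 for Hspe1 (HSP10). Hspb1 (HSP27, a small heat shock protein) had 19.7, Dnajb1 (a J protein) 18.8, and Hspa1b 16.5. The lowest were Hsph1 (HSP110, a nucleotide exchange factor) at 5.15 and Hspa1a at 3.83 CPM per kb. The lengths come from another annotation release than the counts, matched by symbol. They count every exon base of all annotated transcripts of a gene, 7266 for Hsph1 and 4301 for Hspa8. A single transcript can be shorter, which would raise its level per kilobase, so the order is approximate. The levels of Hspa1a and Hspa1b also depend on how the counting treats near-identical copies, which is unknown here. All other levels below are TMM-normalised CPM, counts scaled to a common library size, which do not allow for length and compare libraries only within a gene.

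The same genes differed widely in how much they varied. The highest of the 18 libraries exceeded the lowest 20.4-fold for Hspa1a, 8.90-fold for Hspa1b and 7.34-fold for Hspb1, but 1.71-fold for Bag3 and 1.56-fold for Hspd1. Hsph1 (3.62-fold), Dnajb1 (2.90-fold), Hsp90aa1 (2.16-fold), Hspa8 (1.80-fold) and Hspe1 (1.78-fold) lay between. For each of the 10 members the coefficient of variation over the 9 libraries of a time was larger after cessation than at 10 weeks, 97.5% against 29.7% for Hspa1a and 34.2% against 5.7% for Dnajb1. The spread over libraries of the same group also differed over all genes, with a biological coefficient of variation of 11.7% to 23.1% in the groups of 10 weeks and 27.7% to 35.5% in those of cessation.

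**Figure D1:**
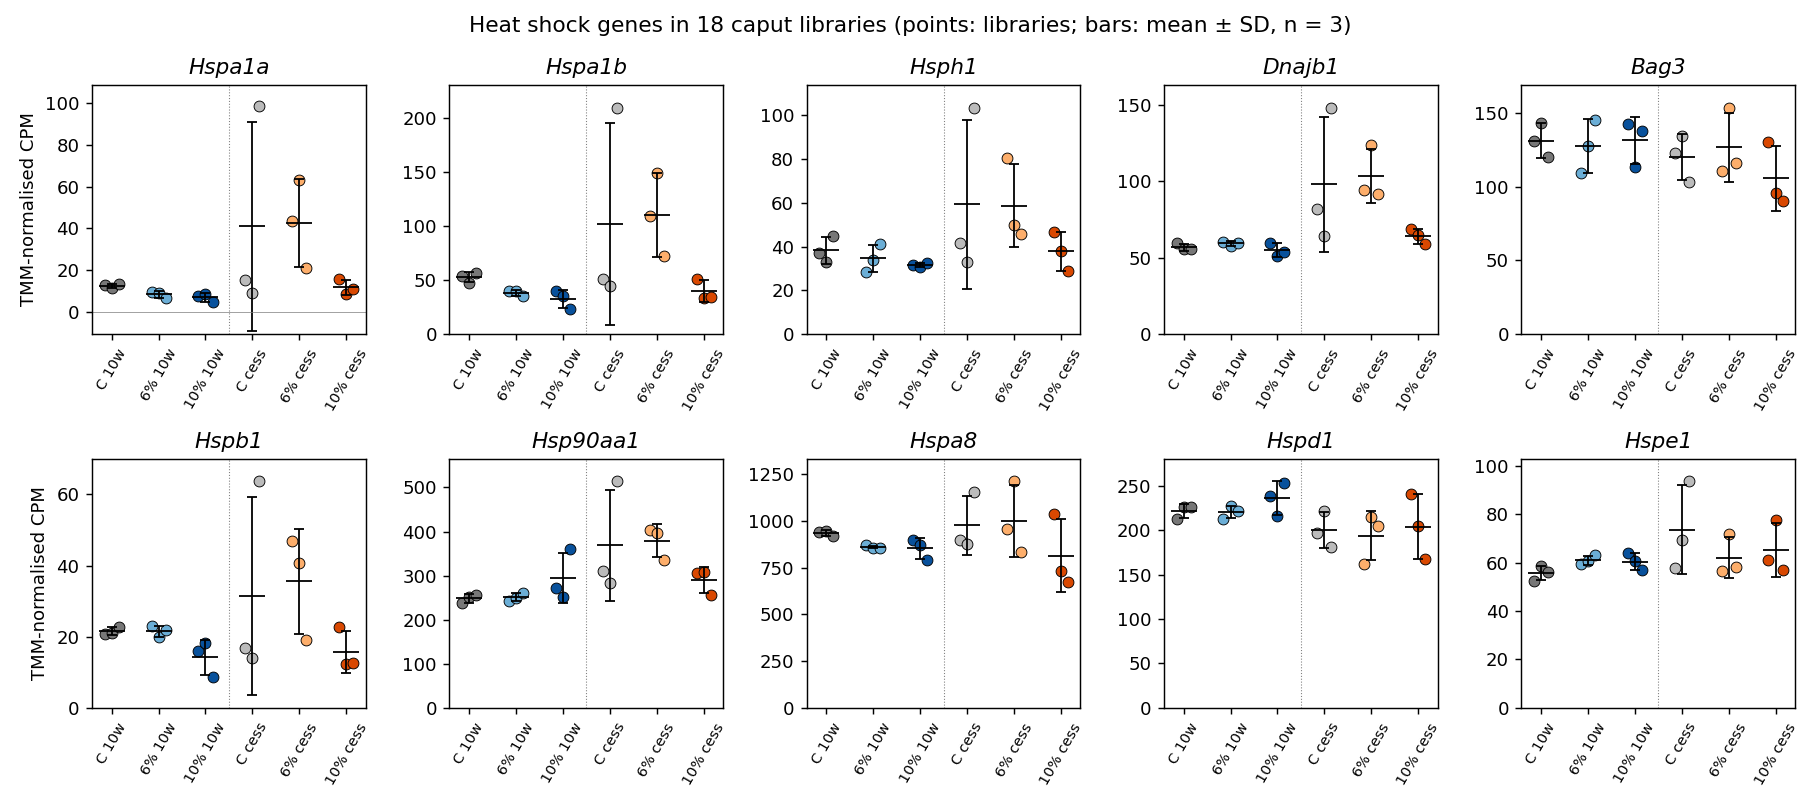
TMM-normalised CPM (y axis, linear, 1 panel a gene) of the 10 members in the 6 groups (x axis). Points are libraries, the bar is the mean and the whiskers 1 SD of 3. Replicate 3 of the controls after cessation is at 98.6 CPM for Hspa1a and 210 CPM for Hspa1b, above all other libraries, while Bag3 and Hspd1 show no such library.

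Between the times, with the treatments averaged, 4 of the 10 members were higher after cessation: the inducible HSP70 genes Hspa1a and Hspa1b, their J protein Dnajb1, and Hsp90aa1. No member was lower. The largest difference was that of Hspa1a, with a log2 fold change of 1.58 ± 0.38 (SE; adjusted p = 0.0186), and the smallest called was that of Hsp90aa1, at 0.38 ± 0.11. Of all genes tested, 17.9% were called in this comparison, 10.7% higher and 7.21% lower. The members' median log2 fold change was 0.43, and that of all genes 0.05. Tests here are edgeR's two-sided quasi-likelihood test on all 18 libraries with Benjamini-Hochberg adjustment over the 18618 genes and a threshold of 0.05. Each time holds controls as well as both doses, so the control libraries compare the times without ethanol. Neither ages nor batches are given. Differences of age, collection or handling between the times therefore cannot be told apart from time, in the controls too. The end of treatment and the time of sampling cannot be told apart within a dose alone, and the interactions given further on set each dose against its controls.

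Hspa1a and Hspa1b are neighbouring copies of inducible HSP70 with near-identical coding sequence, so reads can be split between them by the counting, and each level is uncertain on that account. At 10 weeks Hspa1a had 12.9, 11.6 and 13.4 CPM in the controls, 9.88, 9.18 and 6.81 in 6% EtOH, and 7.88, 8.72 and 4.84 in 10% EtOH. After cessation it had 15.2, 9.08 and 98.6 CPM in the controls, 43.7, 62.9 and 21.2 in 6% EtOH, and 15.7, 8.79 and 11.1 in 10% EtOH. All 3 libraries of 6% EtOH after cessation and 1 control library thus stood above all others, and the other 2 controls and the 10% EtOH group lay near the levels of 10 weeks. Hspa1b had 47.7 to 56.8 CPM in the controls, 35.2 to 40.2 in 6% EtOH and 23.6 to 39.6 in 10% EtOH at 10 weeks. After cessation Hspa1b had 51.5, 44.9 and 210 CPM in the controls, 110, 149 and 72.1 in 6% EtOH, and 51.5, 33.8 and 34 in 10% EtOH. The order of libraries was much as for Hspa1a. The time difference of Hspa1b was 0.91 ± 0.26 (SE; edgeR adjusted p = 0.0298).

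Dnajb1, which stimulates the ATPase of HSP70, was tightly held at 10 weeks, at 51.1 to 60.5 CPM over the 9 libraries. After cessation it had 81.5, 64.3 and 148 CPM in the controls, 94.3, 124 and 91.8 in 6% EtOH, and 68.8, 64.6 and 59 in 10% EtOH. In 8 of the 9 cessation libraries it exceeded the highest library of 10 weeks, and the exception was replicate 3 of 10% EtOH. Its time difference was 0.60 ± 0.12 (SE; edgeR adjusted p = 0.0104). Hsp90aa1 had 238, 251 and 256 CPM in the controls of 10 weeks, 243, 250 and 260 in 6% EtOH, and 273, 251 and 360 in 10% EtOH. After cessation it had 309, 284 and 514 CPM in the controls, 403, 397 and 336 in 6% EtOH, and 305, 307 and 255 in 10% EtOH. Its time difference had an edgeR adjusted p of 0.0290.

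RLE scaling and limma voom called the same 4 members, and limma voom called 14.1% of all genes. DESeq2 called 5 members and 25.3% of all genes, with Hsph1 added (adjusted p = 0.0255). Without the low-count filter edgeR tested 36360 genes and called 6 members, with Hsph1 and Hspb1 added. The median log2 fold change was then 0.14 over all genes and 0.41 over the members. The share of all genes called is not given here for RLE scaling or without the filter. The members called in these settings are therefore not set against it.

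The other 6 members did not pass in edgeR with the filter. Hsph1, which resets HSP70, had a log2 fold change of 0.55 ± 0.19 (SE; edgeR adjusted p = 0.0583), and its levels ran from 28.6 to 44.9 CPM at 10 weeks and from 28.8 to 104 after cessation. Hspb1 had 0.48 ± 0.27 (adjusted p = 0.216 by edgeR), with 8.67 to 22.9 CPM at 10 weeks and 12.2 to 63.7 after cessation. Bag3, which links HSP70 to the small heat shock proteins and to autophagy, had -0.15 ± 0.10 (edgeR adjusted p = 0.269), although it too is an HSF1 target. Hspa8 had 0.07 ± 0.10 (edgeR adjusted p = 0.646). The ranges of the 2 times overlapped for all 10 members, called or not, where 0.451% of all genes did not overlap.

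The calls did not all rest on the same libraries. Those of Hspa1a and Dnajb1 held when each of the 18 libraries was left out in turn, with log2 fold changes of 1.005 to 1.73 and 0.47 to 0.68. Leaving out replicate 3 of the controls after cessation gave the low end of both ranges, and lowered Hspa1b to 0.56. The number of members called ran from 2 to 5 over these leave-outs. It was 2 without replicate 1 or 2 of the controls, replicate 2 or 3 of 6% EtOH or replicate 1 or 2 of 10% EtOH at 10 weeks, and without replicate 1 of 6% EtOH or replicate 3 of 10% EtOH after cessation. With both libraries of doubtful identity left out, Dnajb1 (0.62) and Hsp90aa1 (0.42) passed and Hspa1a (1.501) and Hspa1b (0.85) did not.

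**Figure D2:**
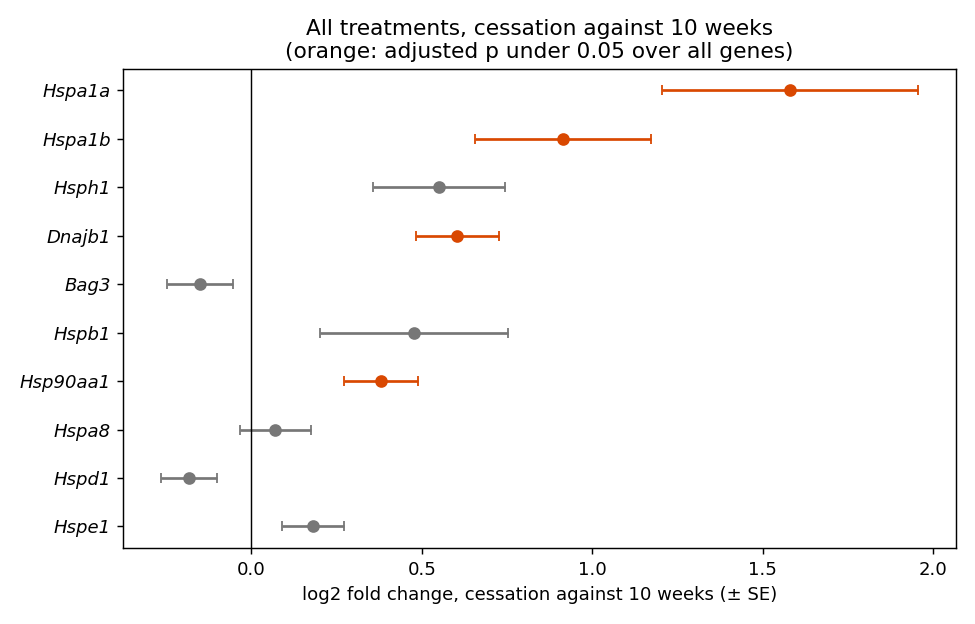
Log2 fold change, cessation against 10 weeks with the treatments averaged (x axis), of the 10 members (y axis). Points are edgeR estimates and bars 1 SE; the 4 orange points, from Hspa1a at 1.58 to Hsp90aa1 at 0.38, passed an adjusted p of 0.05, and the 6 grey ones did not.

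Within a single treatment no member passed in edgeR with the filter. The share of all genes called was 0.118% in the controls, 0.188% in 6% EtOH and 0.0215% in 10% EtOH, and at an unadjusted p under 0.05 there were 4, 5 and 0 members among 3774, 3558 and 1708 of the 18618 genes. In the controls, Hspa1a differed by 1.70 ± 0.64 (SE; edgeR adjusted p = 0.167), by 0.89 in limma voom, and without replicate 3 of the controls after cessation by -0.05. Dnajb1 (0.79 ± 0.21) and Hsp90aa1 (0.57 ± 0.19) were higher in each control library after cessation than in each of 10 weeks, as were 12% of all genes, and without that replicate they differed by 0.37 and 0.26. In 6% EtOH, 5 members had levels in all 3 libraries after cessation above all 3 of 10 weeks, against 13.8% of all genes: Hspa1a (2.31 ± 0.66), Hspa1b (1.52 ± 0.45), Hsph1, Dnajb1 (0.80 ± 0.21) and Hsp90aa1 (0.59 ± 0.19), with edgeR adjusted p of 0.162 to 0.183 for the 4 with values. In 10% EtOH Hspa1a did so alone, against 7.08% of all genes, at 0.74 ± 0.66 (edgeR adjusted p = 0.758). DESeq2 called 1 member in the controls (Dnajb1) and 3 in 6% EtOH (Hspa1a, Hspa1b and Dnajb1), where it called 6.04% and 2.39% of all genes. Without the low-count filter edgeR called 5, 6 and 1 members in controls, 6% EtOH and 10% EtOH. The genes called there were 1740, 1805 and 573 of 36360.

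At 10 weeks the question was whether chaperone levels differed between mice given 6% or 10% EtOH and controls. In edgeR with the filter no member passed in either comparison, and neither did any other gene (0% of genes called in both). At an unadjusted p under 0.05, edgeR gave 0 members and 440 genes for 6% EtOH and 0 members and 2501 genes for 10% EtOH. DESeq2 called 0 and 73 genes (0.64%), none of them a member, and limma voom 0 and 0. Without the low-count filter edgeR called 736 of 36360 genes for 10% EtOH, Hspa1a and Hspa1b among them. The members' median log2 fold changes were -0.03 and -0.09, with 3 (4 with RLE scaling) and 4 of the 10 members above the control mean.

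In CPM, inducible HSP70 was lower in each ethanol library of 10 weeks than in each control, while the 2 doses overlapped. All 3 libraries of 6% EtOH lay below all 3 controls for Hspa1a, Hspa1b and Hspa8 and above them for Hspe1, as for 9% and 9.67% of all genes. All 3 libraries of 10% EtOH lay below the controls for Hspa1a, Hspa1b, Hsph1, Hspb1 and Hspa8, where 15.5% of all genes did so. The means of Hspa1a were 12.6 ± 0.911, 8.62 ± 1.61 and 7.15 ± 2.04 CPM (SD, n = 3) in control, 6% and 10% EtOH, and the ranges of the 2 ethanol groups overlapped. The log2 fold changes against control were -0.55 ± 0.65 and -0.82 ± 0.65 (SE; edgeR adjusted p = 1 and 0.598). Those of Hspa1b were -0.46 ± 0.45 and -0.69 ± 0.45 (edgeR adjusted p = 1 and 0.514).

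The fit of all 18 libraries shares 1 estimate of the spread, and the cessation libraries are the more variable. In a fit of the 9 libraries of 10 weeks alone, 6.17% of 17154 genes were called for 10% EtOH. Hspa1a (-0.81 ± 0.21 SE, edgeR adjusted p = 0.0438) and Hspa1b (-0.68 ± 0.15 SE, edgeR adjusted p = 0.0326) were among them, and Hspb1 (-0.59 ± 0.20 SE, edgeR adjusted p = 0.0941) was not. For 6% EtOH the same fit called 0 genes. These calls depended on single libraries: leaving out 1 of the 9 in turn gave 0 to 3 members and 0 to 1569 genes, with no member called without any 1 of the 3 controls or without replicate 2 of 6% EtOH. Hspa1a passed in 1 of these leave-outs, the one without replicate 2 of 10% EtOH. Over these groups the summed principal cell markers stood at 68648 to 74201 CPM in controls, 80116 to 91193 in 6% EtOH and 90312 to 104360 in 10% EtOH. Other summed markers were also higher in each 10% EtOH library than in each control: fibroblast markers at 778 to 861 against 552 to 663 CPM, smooth muscle markers at 1798 to 2092 against 1334 to 1686 CPM, and macrophage markers at 188 to 303 against 146 to 168 CPM. The part of these markers in the differences of the members was not tested.

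Hspa8 had 917 to 947 CPM in the controls of 10 weeks, 854 to 868 in 6% EtOH and 790 to 897 in 10% EtOH, with log2 fold changes of -0.12 ± 0.18 and -0.13 ± 0.18 (SE). Hspb1 had 20.8 to 22.8 CPM in the controls, 19.8 to 22.9 in 6% EtOH and 8.67 to 18.1 in 10% EtOH, and the lowest value was that of replicate 3, a library of doubtful identity. That library also held the highest Hsp90aa1 of the 10-week libraries, at 360 CPM. With both libraries of doubtful identity left out, the fold changes of 10% EtOH against control were -0.34 for Hspb1 and 0.077 for Hsp90aa1, from -0.60 and 0.25.

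**Figure D3:**
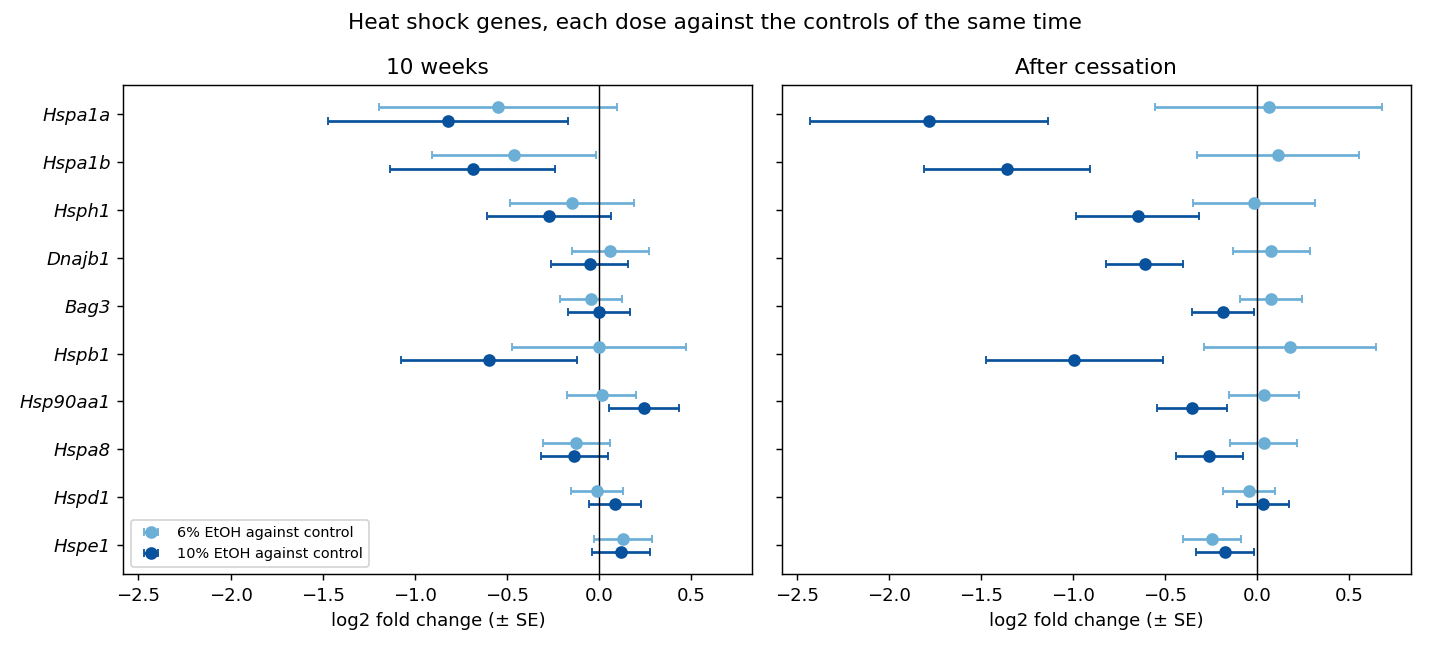
Log2 fold change (x axis) of the 10 members (y axis), 6% and 10% EtOH against the control of the same time, at 10 weeks and after cessation. Points are edgeR estimates and bars 1 SE. At 10 weeks Hspa1a lies at -0.55 and -0.82, and after cessation at 0.06 and -1.78, the latter -0.03 without replicate 3 of the controls. In the fit shown, of all 18 libraries with the low-count filter, none passed an adjusted p of 0.05.

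After cessation the comparison asks whether levels differed between treated mice and controls of that time. It does not test whether a level had returned to that of the controls. In edgeR with the filter no member and no other gene passed for either dose (0% of genes called). The ranges of treated and control libraries overlapped for every member, where 4.01% (6% EtOH) and 6.46% (10% EtOH) of all genes did not overlap. At an unadjusted p under 0.05 edgeR gave 301 genes and no member for 6% EtOH, and 1240 genes and 3 members for 10% EtOH. DESeq2 called 1 (0.00537%) and 0 genes, none of them a member, and limma voom 0 and 0. Without the low-count filter edgeR called 407 of 36360 genes for 10% EtOH, among them Hspa1a, Hspa1b, Hsph1, Dnajb1 and Hspb1. For 6% EtOH the members' median log2 fold change was 0.05, with Hspa1a at 0.06 ± 0.61 and Hspe1 at -0.25 ± 0.16 (SE). In limma voom Hspa1a was at 0.77. Without replicate 3 of the controls it was at 1.82 (edgeR adjusted p = 0.838), and without replicate 2 of 6% EtOH at -0.33.

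For 10% EtOH 9 of 10 members lay below the control mean, with a median of -0.48 against -0.02 over all genes. Hspa1a was at -1.78 ± 0.65 (SE; edgeR adjusted p = 0.744) and at -1.003 in limma voom, Hspa1b at -1.36 ± 0.45, Dnajb1 at -0.61 ± 0.21, Hsph1 at -0.65 ± 0.34, Hspb1 at -0.99 ± 0.48 and Hsp90aa1 at -0.35 ± 0.19. One control library set these values. Without replicate 3 of the controls they were -0.03, -0.27, -0.18, 0.03, 0.03 and -0.03 in the same order. That library held the highest level of 7 members over all 18 libraries, all but Bag3, Hspa8 and Hspd1.

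The change of a dose effect from 10 weeks to cessation was tested as an interaction. No member passed for either dose, with 0% of all genes called, and at an unadjusted p under 0.05 edgeR gave 0 members and 561 genes for 6% EtOH and 1 member and 1386 genes for 10% EtOH. The member was Hsp90aa1, with -0.60 ± 0.27 (SE; edgeR adjusted p = 0.665). Dnajb1 was at -0.56 ± 0.30 (SE; edgeR adjusted p = 0.695), and without replicate 3 of the controls after cessation the values of both were -0.28 and -0.13. DESeq2 called 0 genes for 6% EtOH and 0.0107% for 10% EtOH, and limma voom none.

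**Figure D4:**
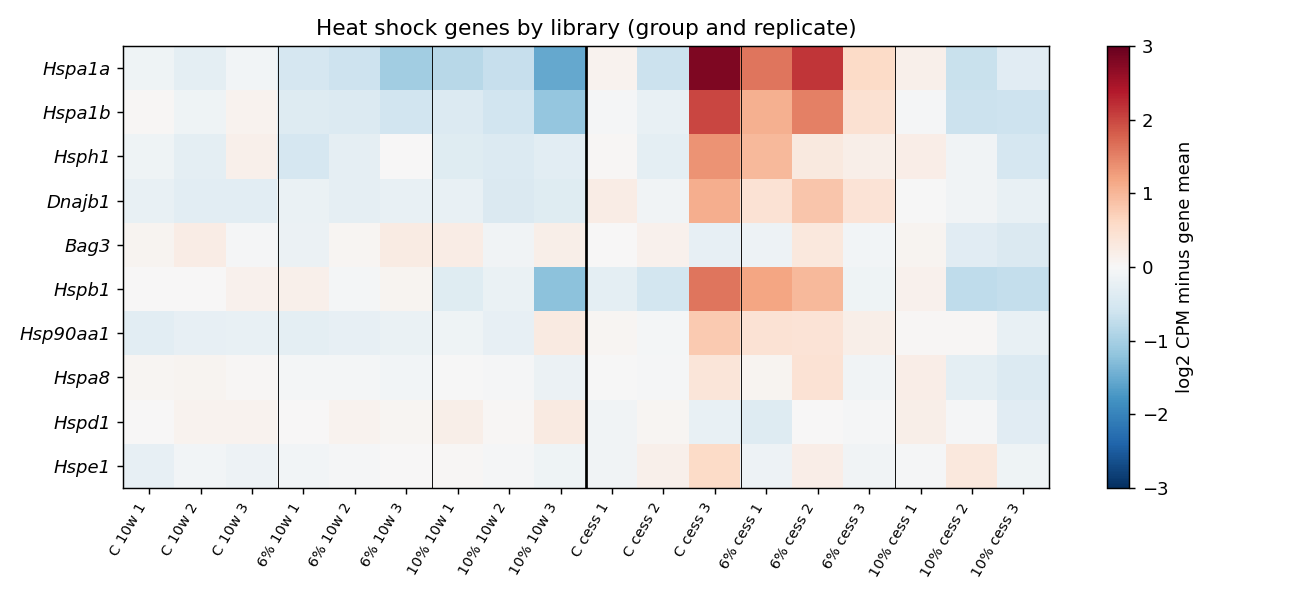
Log2 CPM of each member minus its mean over the 18 libraries (colour scale saturating at 3 log2 units either way), with libraries in columns by group and members in rows. Replicate 3 of the controls and replicates 1 and 2 of 6% EtOH after cessation are the libraries in which 8, 7 and 9 members exceeded every library of 10 weeks.

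The high libraries after cessation were few and shared many members. Replicate 3 of the controls exceeded all 9 libraries of 10 weeks for 8 members, as did 30.7% of all genes. Replicates 1, 2 and 3 of 6% EtOH did so for 7, 9 and 4 members and for 31.2%, 19.0% and 15.4% of all genes. In 10% EtOH the numbers were 4, 2 and 0 members and 10.4%, 19.6% and 21.9% of all genes, and in the other 2 control libraries 2 and 2 members and 22.0% and 7.78%. Other genes moved in the same libraries. The summed level of 21 immediate early genes, which respond within minutes to many stimuli, was 654 to 817 CPM at 10 weeks and 1076 to 3295 after cessation, with 3295 in replicate 3 of the controls and 2579, 2513 and 1802 in 6% EtOH. Much of the sum at 10 weeks was 1 gene, Egr2, with group means of 356 to 387 CPM. Egr2 was lower after cessation, at a log2 fold change of -0.44, so the sum understates the rise of the other genes. Summed endothelial markers (5 genes) were 39 to 79.4 CPM at 10 weeks and 251, 259 and 146 CPM in the 3 libraries with most members above that level. They were also 155 CPM in replicate 1 of the controls after cessation, where 2 members were. Summed basal cell markers (4 genes) were 279 to 320 CPM at 10 weeks and 573, 464 and 424 CPM in those 3. Summed markers of ciliated cells of the efferent ducts (5 genes) were 25.2 to 62.7 CPM at 10 weeks and 86.4, 189.8 and 80.5 CPM in those 3, and at most 41.9 CPM in the other cessation libraries. Summed spermatid and sperm markers (6 genes) were 59.1 to 142.96 CPM at 10 weeks and 257, 226 and 143.4 CPM in those 3, against 89.1 to 186 CPM in the other cessation libraries. Principal cell markers were low in 2 of the 3, as given above, and 64457 CPM in replicate 2 of 6% EtOH. No marker of these cell types was at 0 in all libraries of a group. The part of these shifts in the levels of the members was not tested.

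Copies of inducible HSP70 also differed in their balance. Hspa1a held 16.2% to 19.7% of the reads of the Hspa1a and Hspa1b pair at 10 weeks (median 19.0%) and 16.8% to 31.9% after cessation (median 23.4%), and 8 of 9 cessation libraries exceeded all of 10 weeks. In replicate 3 of the controls after cessation the share was 31.9% (95% exact Clopper-Pearson interval 30.6% to 33.3%), in 6% EtOH 28.5%, 29.6% and 22.8%, and in the control library with the lowest share 16.8% (14.4% to 19.5%). The 3 libraries with the most reads of the pair had the 3 highest shares of Hspa1a, at 309 CPM for the pair in the first of these. Only the intervals of these 3 lay wholly above those of all libraries of 10 weeks. In replicate 2 of 10% EtOH the share was 20.6% (17.4% to 24.2%) after cessation and 19.7% (16.7% to 22.9%) at 10 weeks. The share was noticed after the values were seen, so no test is given. Intervals cover counting error only, and whether the counting splits reads of near-identical copies alike in all libraries was not tested.

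**Figure D5:**
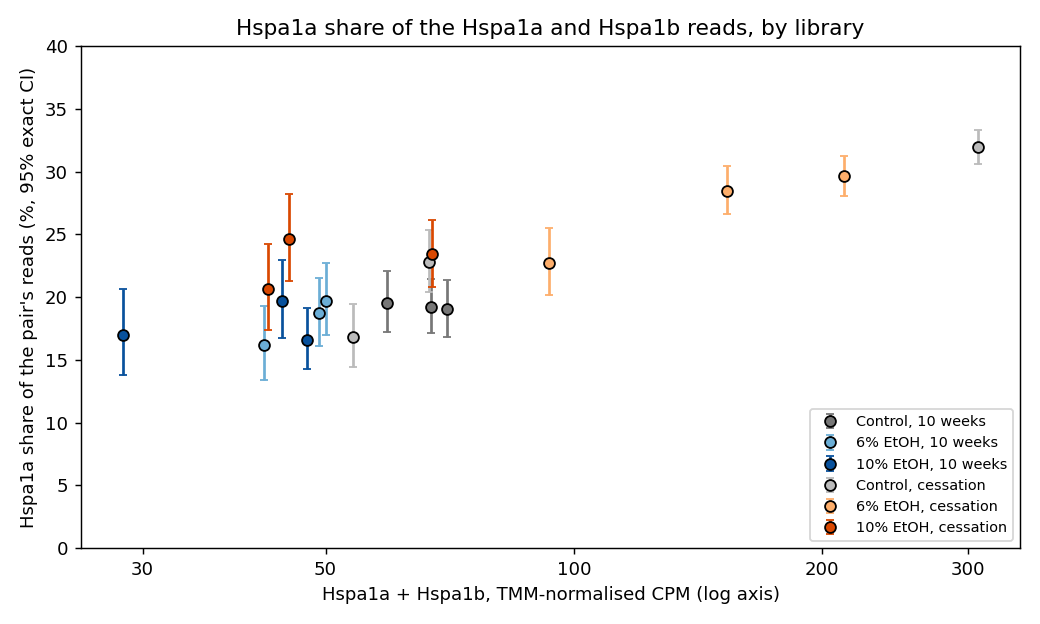
Share of Hspa1a among the reads of Hspa1a and Hspa1b (y axis, percent) against the CPM of the pair (x axis, log scale) in the 18 libraries. Bars are 95% exact binomial intervals. The 9 libraries of 10 weeks lie between 16.2% and 19.7%, and the library with the most reads of the pair is at 31.9%.

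The mitochondrial pair varied less. Hspd1, the barrel of the chaperonin, had 212.9 to 254 CPM at 10 weeks and 162 to 241 CPM after cessation, a log2 fold change of -0.18 ± 0.08 (SE; edgeR adjusted p = 0.117). Hspe1, its lid, had 52.6 to 64 CPM at 10 weeks and 56.3 to 93.6 CPM after cessation, at 0.18 ± 0.09 (SE; edgeR adjusted p = 0.159). The estimates of the 2 genes, which lie head to head, thus had opposite signs, and neither passed. Per library, the ratio of Hspe1 to Hspd1 counts was 0.224 to 0.284 at 10 weeks (median 0.267) and 0.254 to 0.516 after cessation (median 0.334). The highest ratio was that of replicate 3 of the controls. Hspe1 was above the controls in each 6% EtOH library at 10 weeks, at 0.13 ± 0.16 (SE). Annotated copies of both genes hold reads of their own, with at most 38 counts in a library for a copy of Hspd1 and 16 for one of Hspe1.

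Of 71 tested genes in the lists of other chaperones and HSF1 partners, 5 were higher and 6 lower after cessation with treatments averaged, with a median log2 fold change of -0.02, where 10.7% of all genes were higher and 7.21% lower. This is near the background for chaperones as a whole. Of the other small heat shock proteins, 3 of 4 tested genes were higher, with a median of 0.84: Hspb8, the partner of Bag3, at 1.39 ± 0.27 (SE; edgeR adjusted p = 0.0101), Cryab (alpha B crystallin) at 0.76 ± 0.20 and Hspb7 at 0.92 ± 0.26. Hspb8 ran from 7.73 to 12.3 CPM at 10 weeks and from 10 to 56.3 after cessation. Ier5, an HSF1 target whose product promotes HSF1 activity, rose by 1.87 ± 0.32 (SE; edgeR adjusted p = 0.0061), from 5.07 to 10.4 CPM at 10 weeks to 8.77 to 71.4 after cessation. Of the same list of 8 genes, Hsbp1, an HSF1-binding protein, fell by 0.24 on the log2 scale (edgeR adjusted p = 0.0455), and Hsf2 was at 0.35 ± 0.17 (edgeR adjusted p = 0.146).

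Of 15 J proteins, exchange factors and HSP70 co-chaperones, 1 was higher, Dnajb4, at 0.43 ± 0.07 (SE; edgeR adjusted p = 0.0021), and none lower. Bag2 was at 0.20 and Bag1 at -0.14, and neither passed. Of 7 other HSP70 and HSP110 genes, 1 was lower, Hspa14 (-0.24 ± 0.08), a ribosome-associated HSP70, and the list's median was -0.08. Hspa12b (0.75 ± 0.27) and Hspa2 (-0.19 ± 0.10), an HSP70 of male germ cells, did not pass. Of 9 HSP90 partners, 1 was lower, Ahsa1, which activates the HSP90 ATPase, at -0.30 ± 0.08 (SE; edgeR adjusted p = 0.0259). The immunophilins Ppid (0.43 ± 0.15) and Fkbp4 (-0.30 ± 0.11) did not pass. Of 14 mitochondrial chaperones and proteases, 2 were lower, Dnaja3 (-0.35 ± 0.09), the mitochondrial J protein, and Afg3l2 (-0.29 ± 0.07), a protease of the inner membrane, and Spg7, its partner, was at -0.34 ± 0.13 and did not pass. Of 14 genes of the TRiC chaperonin and prefoldin, 1 was lower, Pfdn2 (-0.36 ± 0.12), while Cct7 (-0.22) and Cct3 (-0.15) did not pass.

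By contrast, 20 of 21 immediate early genes were higher after cessation and 1 was lower, Egr2 (-0.44), with a median of 2.06. One of them, Fosl1, was at 0 in all 9 libraries of 10 weeks. Fosb (6.25 ± 0.52 SE) and Nr4a3 (5.44 ± 0.42 SE) had larger differences than any member. Atf3, a stress-induced transcription factor, was at 4.77 ± 0.38 (SE) and ran from 3.72 to 8.85 CPM at 10 weeks and from 52.3 to 575 after cessation, so that its ranges did not overlap, which no member's did between the 9 libraries of each time (0.451% of all genes).

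The genes whose pattern over the 18 libraries was most like the mean of Hspa1a, Hspa1b, Hsph1, Dnajb1 and Bag3 were Hes1 (Pearson r = 0.95), Midn (0.94), Ppp1r15a (0.94), Nfil3 (0.93), Irs2 (0.93), Itpkc (0.93), Mt1 (0.93) and Jund (0.92), of 10013 genes with enough reads. Over deviations from the group means, r was 0.85 to 0.96 for these, so that the likeness is also one between libraries of a group. Bag3 did not share the pattern of the other 4 (r = -0.14 with Hspa1a and -0.09 with Dnajb1 over the 18 libraries), and Hspb1, which is not in this mean, did (0.88 with Hspa1a and 0.90 with Hspa1b). For the mean of Hspd1 and Hspe1 the closest were Tmem183a (0.80), Dusp16 (0.79), Ints12 (0.78) and Osgep (0.77). The levels of Hspd1 and Hspe1 were themselves hardly related over the 18 libraries (r = -0.13), so likeness to their mean is not likeness to each of them. These are descriptions over libraries that fall into groups and differ in depth and in cell type markers. The part of these differences in the likeness was not tested. As the genes were ranked for likeness, no p is given.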

How the data were processed

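Total RNA (RNeasy mini kit) of mouse caput epididymis was sequenced on an Illumina HiSeq, per the labels. The submitters' processing notes name Trimmomatic, STAR, featureCounts and GRCm39 (mm39); their versions, the annotation, strandedness and the handling of multi-mapping reads are unknown here, so antisense neighbours and near-identical copies cannot be told apart. The deposited values are raw counts per gene, 1 table a library. From these, edgeR 4.0.16 in R 4.3.3 gave TMM-normalised CPM and, after filterByExpr (minimum count 10, minimum total 15), robust quasi-likelihood tests with 1 term per group over 18 libraries and 18618 genes, Benjamini-Hochberg adjusted, two-sided, threshold 0.05. The SE given with an edgeR fold change was derived from the test: the absolute log2 fold change divided by the square root of the F statistic. The 10 comparisons were treatment against control at each time, the change of each effect between times, and time within and over treatments. Alternatives were RLE scaling, no low-count filter, DESeq2 1.42.0, limma voom 3.58.1, fits of the 9 libraries of 1 time, and leaving out libraries; leaving out both libraries of doubtful identity, and leave-outs within the 9-library fit, were added after seeing the data. The scripts were tested on simulated data.

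The members and the gene lists were chosen with earlier results of these data known. All 10 members are named; from each other list, genes that passed are counted and the 3 of smallest p in the time contrast are named, provided their mean log2 CPM was 1 or more; the 8 genes of most like pattern are ranked by Pearson r among genes whose mean log2 CPM reached 3. For Hspd1 and Hspe1 the first 4 of these are printed. Replicates were compared before averaging: the smallest chi-square per degree of freedom between libraries of a group was 5.79, so none was a duplicate. Promoters come from RefSeq (GRCm38.p6) and lengths from GENCODE vM21.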

Additional observations from a re-analysis of the deposited data

How the results depend on the processing

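With treatments averaged, the time contrast called 2 to 5 members and 850 to 5811 genes over single leave-outs, and 2 members and 1498 genes without both libraries of doubtful identity. Leaving out 1 library moved Hspa8 from -0.0058 (without replicate 1 of 10% EtOH after cessation) to 0.11. In the same contrast Hspa1b lost its call in 8 and Hsp90aa1 in 9 of 18 leave-outs, with adjusted p up to 0.0681 and 0.066. Without the low-count filter 36360 genes were tested. Genes called were then 44 and 736 (6% and 10% EtOH, 10 weeks), 51 and 407 (after cessation), and 88 and 385 (interactions). For time in controls, 6% and 10% EtOH they were 1740, 1805 and 573. Members called were 2 for 10% EtOH at 10 weeks, 5 for 10% EtOH after cessation, and 5, 6 and 1 for time. DESeq2 called 73 genes for 10% EtOH at 10 weeks, 1 for 6% EtOH after cessation, 2 for the 10% interaction, and 993, 419 and 90 for time, with 1 member in controls and 3 in 6% EtOH. Limma voom called 3, 10 and 0 genes for time. The fit of the 9 libraries of 10 weeks called 2 members and 1059 genes for 10% EtOH, and 0 to 3 members and 0 to 1569 genes over its leave-outs. Without both libraries of doubtful identity, time called 3 genes in 6% EtOH and 0 in 10% EtOH. Single leave-outs gave 0 to 1 members and 0 to 191 genes for 10% EtOH after cessation, 0 to 3 members and 0 to 2724 genes for time in controls, 0 to 88 genes for time in 6% EtOH and 0 to 0 in 10% EtOH. They moved Hspa1a from -0.41 to 1.82 (6% EtOH after cessation) and from -0.049 to 2.16 (time in controls), Hsph1 from -0.94 to 0.026 and Hspb1 from -1.35 to 0.032 (10% EtOH after cessation). The causes were not tested beyond the library or genes left out. RLE scaling turned none of the fold changes printed for members. It changed the sign of 4 all-gene medians close to 0, that of 10% EtOH after cessation from -0.016 to 0.0048 and those of 6% EtOH (-0.0069 to 0.0020) and 10% EtOH (-0.011 to 0.0066) at 10 weeks and of the 6% interaction (0.0021 to -0.0057). For 6% EtOH at 10 weeks it raised the members above 0 from 3 to 4. No paired analysis was possible because the labels carry no replicate numbers. With 3 libraries a group, small differences of the variable members after cessation could not be resolved. Large ones did not pass in edgeR with the filter either, such as Hspa1a at -1.78 ± 0.65 (SE) for 10% EtOH against control.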
